A study of Homo sapiens with 10 samples.

Results

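The regions described here had an accessibility peak in parental CCRF-CEM cells after 6 h of prexasertib and were called neither with DMSO nor after camptothecin. Merging the peaks of all 10 deposited lists on chromosomes 1 to 22 and X, with an overlap of 1 bp as the minimum, gave 35505 regions. A region counted as called in a library when that library's list held a peak in it. The members were chosen by these peak calls in the parental 6 h prexasertib, DMSO and 4 h camptothecin lists, and they number 4314 regions, which is 12.2% of all regions and 18.9% of the 22834 regions called after 6 h of prexasertib. They make up 50.4% of the 8563 regions gained at 6 h against DMSO, themselves 24.1% of all regions, and the other 4249 gained regions were also called after camptothecin. In what follows they are called the prexasertib-only regions. Their calls and strength in those 3 lists are therefore a description and no finding.

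CCRF-CEM is a human T lymphoblast line from a leukemia. The parental cells carry wild-type SLFN11, and the other cells are a knockout of that gene in the same line. The sources used here do not say how the knockout was made or from how many clones. Prexasertib was given at 100 nM and read out after 2, 4 and 6 h, camptothecin at 100 nM was read out after 4 h, and DMSO was the vehicle; parental and knockout cells were treated alike. Each genotype and treatment has 1 library, so no difference below has a replicate check and no p-value is given. Intervals are 95% intervals that cover counting error over regions only, exact binomial (Clopper-Pearson) for shares and from order statistics for medians. Where intervals do not overlap, variation between libraries is still not measured, and a difference between conditions is not shown. The identity of the cells was not checked against marker genes, because no annotation of build hg19 was used here.

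ATAC-seq uses a transposase that inserts adapters where DNA is not covered by nucleosomes, so a peak marks a stretch of open chromatin. CHK1, the kinase that prexasertib inhibits, holds back origin firing and keeps stalled replication forks stable. Camptothecin traps topoisomerase I on DNA, and replication forks break when they run into the trapped enzyme. SLFN11 is recruited to stressed replication forks, blocks further replication there and is known for changing chromatin structure around them.

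Depth is known only from the peak caller's background pileup, which lay between 1.59 and 2.1 in the knockout libraries. In parental cells it was 1.63 with DMSO, 1.48, 1.33 and 1.52 in the 2, 4 and 6 h prexasertib libraries, and 1.45 with camptothecin. Per the series record, the raw data for 4 h of prexasertib in parental cells are truncated, and the sources used here do not say whether the peak list came from complete reads. The overall early share is therefore also given without that list. Most other results that use it, such as the early shares by strength and by width, are given only with it. The shortest peak was 160 bp in the parental 6 h list and between 175 and 208 bp in the other 9 lists, which bears on any comparison of widths between lists.

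Few prexasertib-only regions were called earlier in the time course. The 2 h list held 297 of the 4314, 6.88% (6.15% to 7.68%), where 43.5% of all regions were called. The 4 h list held 551, 12.8% (11.8% to 13.8%), where 49.5% of all regions were called. In all, 757 regions (17.5%, 16.4% to 18.7%) were called at 2 h or 4 h, against 54.9% of all regions, and 3557 (82.5%) at neither time. The 757 divide into 460 called at 4 h and not at 2 h, 206 called at 2 h and not at 4 h, and 91 called at both times. With the 4 h list left out of the merge and the calls, 4321 regions met the rule and 6.85% of them were called at 2 h.

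Of the regions gained with both drugs, 61.8% (60.3% to 63.3%) were called at 2 h or 4 h, and of the 2843 gained with camptothecin only, 19.3% (17.9% to 20.8%). The camptothecin-only regions are the closest counterpart, since they too needed a call in 1 treated parental list and no call in the other treated list or with DMSO. At 4 h the prexasertib-only and camptothecin-only regions were called at nearly the same rate, 12.8% and 12.7% (11.5% to 13.9%). At 2 h the prexasertib-only regions were called less often than the camptothecin-only regions, at 6.88% against 10.1% (9.01% to 11.3%), and these intervals did not overlap. Thus early prexasertib calls were not more frequent at the prexasertib-only regions than at the camptothecin-only regions.

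**Figure D1:**
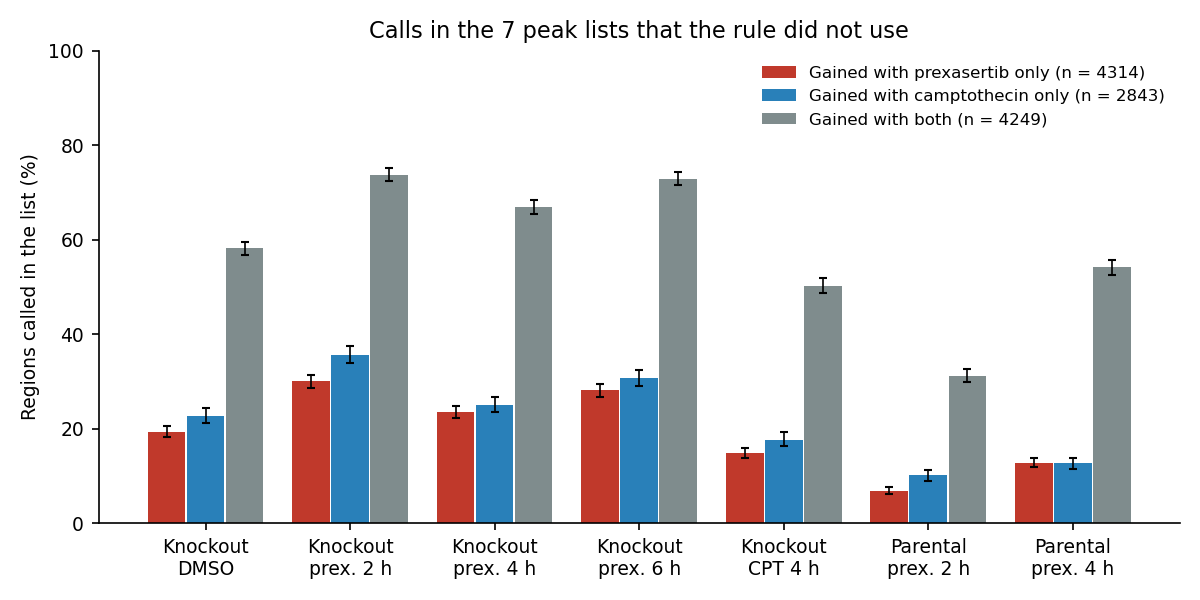
Percent of regions called (y axis) in each of the 7 lists that the rule did not use (x axis), for regions gained with prexasertib only (red, 4314), with camptothecin only (blue, 2843) and with both drugs (grey, 4249), with 95% exact binomial intervals. Red bars run from 6.88% at 2 h in parental cells to 30% at 2 h in knockout cells, near the blue bars and far under the grey ones.

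Most prexasertib-only regions were weak peaks in the 6 h list, and these values describe the list that chose them. The strength used is the highest −log10 q of the peak caller within a region, where every list begins just above 2. Its median was 3.91 (3.79 to 4.06) in the prexasertib-only regions, 7.29 in the regions gained with both drugs and 29.3 in the 14271 regions also called with DMSO. A −log10 q of at least 5 was reached by 1458 prexasertib-only regions (33.8%), at least 10 by 313 (7.26%) and at least 20 by 38 (0.881%). With a −log10 q of at least 10 required of the peaks in every list, the rule gave 1863 regions, since weak DMSO and camptothecin peaks then no longer excluded a region. The 125 members nearest the threshold had values between 2.001 and 2.098. Of the 6 h regions that failed the rule, the 57 nearest to passing had a best DMSO or camptothecin −log10 q between 2.001 and 2.097.

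The deposited fold over the local background had a median of 4.21 (4.16 to 4.26) in the prexasertib-only regions, 5.04 in the regions gained with both drugs and 8.26 in those also called with DMSO. The pileup at the summit, the number of reads or fragments stacked there, had a median of 12 in the prexasertib-only regions, with a middle range from 10 to 16, against 18 in the regions gained with both drugs and 50 in those also called with DMSO. Camptothecin-only regions had a median pileup of 11 and a median −log10 q of 3.74 (3.65 to 3.83) in the camptothecin list. The medians of the prexasertib-only and camptothecin-only regions thus lay close together, but the upper parts differed. The 95th percentile of −log10 q was 11.5 in the prexasertib-only and 8.53 in the camptothecin-only regions. A value of at least 10 was reached by 7.26% of the prexasertib-only and 2.36% (67) of the camptothecin-only regions, whose highest value was 18.5.

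**Figure D2:**
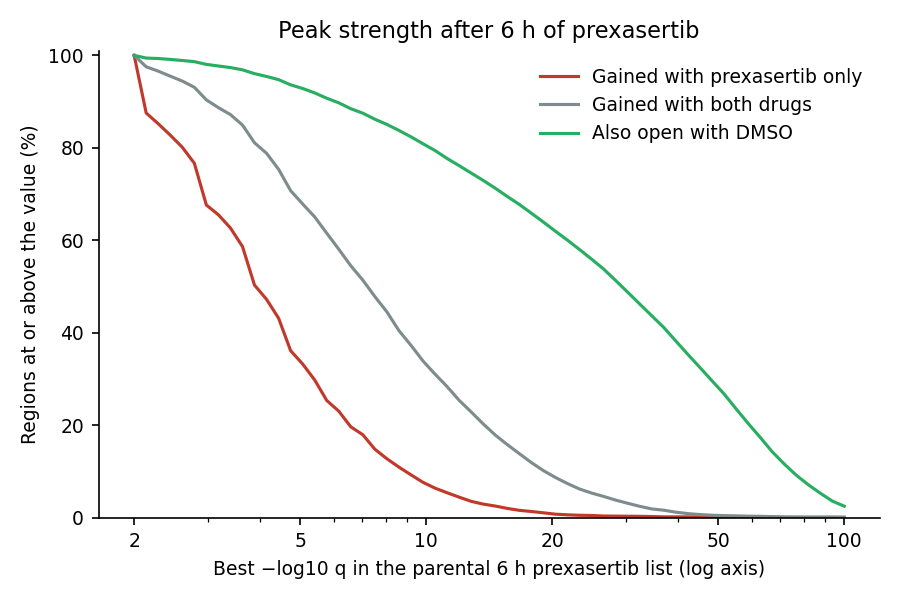
Share of regions (y axis, percent) whose best −log10 q in the parental 6 h prexasertib list is at or above the value on the x axis (log axis). The curve of the prexasertib-only regions (red) falls to 7.26% at a value of 10, below the regions gained with both drugs (grey) and those also called with DMSO (green).

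They were narrow as well. The median width of the longest 6 h peak in a region was 240 bp (236 to 243) in the prexasertib-only regions, 341 bp in the regions gained with both drugs and 674 bp in those also called with DMSO. Camptothecin-only regions were nearly as narrow in the camptothecin list, at 255 bp (250 to 258), with 67.2% under 300 bp. Under 200 bp lay 1264 prexasertib-only regions (29.3%), under 300 bp 3090 (71.6%) and under 500 bp 4152 (96.2%), and the longest measured 1044 bp. A single summit was listed in 4193 of them (97.2%). Width and −log10 q rose together only loosely, with a Spearman correlation of 0.26 across the 4314 regions, which share 1 library and its depth.

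Calls in the 5 knockout lists were not used by the rule. Of the prexasertib-only regions, 838 (19.4%, 18.3% to 20.6%) were called in knockout cells with DMSO, where 56.2% of all regions were. At 2, 4 and 6 h the knockout prexasertib lists held 1293 (30.0%), 1013 (23.5%) and 1213 (28.1%), where 67.0%, 59.6% and 64.7% of all regions were called. The knockout camptothecin list held 643 (14.9%), where 52.4% of all regions were called. Each knockout share thus lay under the background of its list, and the order of the shares across the 5 lists was that of the backgrounds. The backgrounds include 7068 regions (19.9%) in no parental list, each of which has a knockout call by construction.

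No knockout list held 2222 of the prexasertib-only regions, 51.5% (50% to 53%), where 14.0% of all regions had no knockout call. A further 734 were called in 1 knockout list, 504 in 2, 374 in 3, 264 in 4 and 216 (5.01%) in all 5, where 42.2% of all regions were called in all 5. Of all prexasertib-only regions 2099 (48.7%, 47.2% to 50.2%) were called in the parental 6 h list and nowhere else, where 26.1% of all regions were in a single list. The rule raises this share, since it bars members from the parental DMSO and camptothecin lists. Of the regions gained with both drugs, 10.1% (9.18% to 11%) had no knockout call. Of the camptothecin-only regions, 45.6% (43.7% to 47.4%) had none, so the prexasertib-only regions lacked knockout calls somewhat more often, with intervals that did not overlap. The share in all 5 knockout lists was 5.01% (4.38% to 5.70%) in the prexasertib-only and 5.03% (4.26% to 5.90%) in the camptothecin-only regions.

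These shares varied with peak strength. Over all regions, 54.9% were called at 2 h or 4 h and 14.0% had no knockout call. Among prexasertib-only regions with a −log10 q from 2 to 3, 9.77% were called at 2 h or 4 h and 66.5% had no knockout call. From 3 to 5 these shares were 16.4% and 53.5%, from 5 to 10 they were 25.2% and 36.0%, and from 10 to 20 they were 30.5% and 29.8%. Weak members were therefore seen in other lists less often than stronger ones, up to a value of 20. Of the 38 members at 20 or above, 17 (44.7%, 28.6% to 61.7%) were in no knockout list, an interval that overlaps that of the class below it (24.5% to 35.6%).

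At equal strength in the list that called them, the prexasertib-only regions still had a knockout call less often than the camptothecin-only regions, beyond the intervals in 3 of 4 classes. Without a knockout call from 2 to 3 were 66.5% (64.0% to 69.0%) of the prexasertib-only against 58.1% (54.8% to 61.3%) of the camptothecin-only regions. From 3 to 5 it was 53.5% (50.9% to 56.1%) against 46.6% (43.8% to 49.4%), and from 5 to 10 it was 36.0% (33.2% to 38.8%) against 27.9% (24.4% to 31.6%). From 10 to 20 the shares were 29.8% (24.5% to 35.6%) and 17.9% (9.61% to 29.2%), with intervals that overlapped. Equal −log10 q does not mean equal pileup in lists of unequal depth, and whether depth has a part in this difference was not tested.

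**Figure D3:**
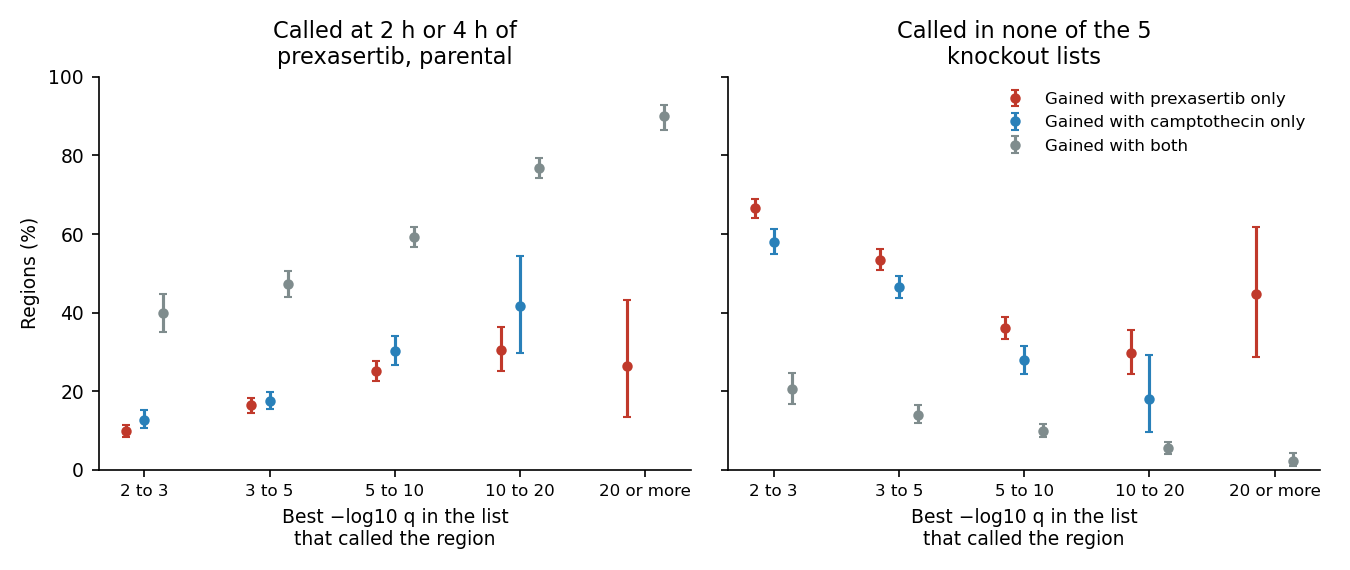
Percent of regions (y axis) called at 2 h or 4 h of prexasertib in parental cells (left) and in none of the 5 knockout lists (right), by the best −log10 q in the list that called them (x axis), with 95% exact binomial intervals; red and grey use the 6 h prexasertib list, blue the camptothecin list. In red the left share is 9.77% from 2 to 3 and 30.5% from 10 to 20, while the right share is 66.5% and 29.8%.

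Early calls and knockout calls went together. Of the 757 prexasertib-only regions called at 2 h or 4 h, 123 (16.2%, 13.7% to 19.1%) had no knockout call, against 2099 of the 3557 called at neither time (59.0%, 57.4% to 60.6%). Over all regions 14.0% had none. Of the 206 called at 2 h and not at 4 h, 14.6% (10% to 20.1%) had no knockout call. With DMSO the knockout list held 322 (42.5%) of the 757 and 516 (14.5%) of the 3557, where 56.2% of all regions were called. Median −log10 q at 6 h was 5.05 in the 757 and 3.68 in the 3557, so the strength differed between them as well. Wider members were likewise found more often: 162 had a 6 h peak of 500 bp or more. Of these, 41.4% (33.7% to 49.4%) were called early and 21.6% (15.5% to 28.7%) had no knockout call, against 54.9% and 14.0% of all regions. Among the 1264 under 200 bp these shares were 10.8% (9.18% to 12.7%) and 65.0% (62.3% to 67.6%). A wider peak has more bases that a peak of another list can overlap, and width rose with −log10 q (Spearman correlation 0.26). The part of either in these shares was not tested.

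Among the members grouped by time, the 91 called at all 3 prexasertib times were the most often shared with knockout cells. The knockout DMSO list held 59 of the 91 (64.8%, 54.1% to 74.6%), where 56.2% of all regions were called. All 5 knockout lists held 28 (30.8%), where 42.2% of all regions were called in all 5. The median summit pileup of the 91 was 13 at 2 h, 12 at 4 h and 15 at 6 h. Over the background pileup of each library this gave summit heights of 8.80 (8.12 to 9.48), 9.05 (9.05 to 10.6) and 9.84 (9.18 to 11.8). The median fold over the local background was 4.28, 4.54 and 4.80 in the same order. All 3 measures were highest at 6 h, but the height intervals of the 3 times overlapped, and a member had to pass the caller at each time to enter. Just 1 of the 91 had no knockout call (1.1%), where 14.0% of all regions had none. This region lay on chromosome 3 at 75679812 to 75680145 (build hg19). Its −log10 q was 2.69 at 2 h, 6.18 at 4 h and 3.36 at 6 h, highest in the 4 h list; without that list it is called at 2 h and 6 h.

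In knockout cells new calls with prexasertib were less frequent at the prexasertib-only regions than over all regions. Of the 3476 prexasertib-only regions without a knockout DMSO peak, 721 (20.7%) were called after 2 h, 511 (14.7%) after 4 h and 672 (19.3%, 18.0% to 20.7%) after 6 h. Over all regions without a knockout DMSO peak the shares were 36.6%, 25.2% and 33.7%. This background includes regions that exist only through a knockout call, so it is raised by construction, and the gap is in part fixed in advance. Of the camptothecin-only regions without such a peak, 20.3% (18.6% to 22%) were called after 6 h, an interval that overlaps that of the prexasertib-only regions. At 2 h the prexasertib-only regions were called less often, at 20.7% (19.4% to 22.1%) against 24.4% (22.6% to 26.3%) of the camptothecin-only regions, and so they were with camptothecin, at 8.20% (7.31% to 9.16%) against 10.8% (9.56% to 12.2%). Of the 838 prexasertib-only regions with a knockout DMSO peak, 266 (31.7%) had none at 2 h, 336 (40.1%) none at 4 h and 297 (35.4%, 32.2% to 38.8%) none at 6 h. Over all regions with that peak, 9.40%, 13.5% and 11.3% had none. Of the 645 camptothecin-only regions with that peak, 25.9%, 45.1% and 33.8% had none, and at each time the intervals overlapped those of the prexasertib-only regions. Camptothecin in knockout cells called 285 (8.20%) of the 3476, where the background was 15.8%, and left 480 (57.3%) of the 838 without a peak, where the background was 19.2%. Of the 645 camptothecin-only regions it left 58.8% (54.9% to 62.6%) without a peak.

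The same rule applied to the knockout lists, with a call after 6 h of prexasertib and none with DMSO or camptothecin, gave 4024 regions. Of these, 514 were also prexasertib-only in parental cells, which is 12.8% (11.8% to 13.8%) of the knockout and 11.9% (11% to 12.9%) of the parental set. Over all regions the parental rule took 12.2% and the knockout rule 11.3%, values near these shares. All regions include many that neither rule can take, such as the 11603 called in all 10 lists. Whether the overlap differs from that of unrelated sets was therefore not tested. The 4024 regions of the knockout set had a median −log10 q of 3.74 and a median width of 286 bp in the knockout 6 h list, so they were weak and narrow too. In knockout cells 1925 (47.8%) of the knockout set had been called at 2 h or 4 h, where 73.8% of all regions were, and in parental cells 17.5% of the parental set had been, where 54.9% of all regions were. The knockout 2 h and 4 h lists held more regions, 23773 and 21166, than the parental ones, 15447 and 17571, and were deeper, so these shares are not compared. In no parental list were 2047 (50.9%) of the knockout set, where 19.9% of all regions were in none. Of the parental set 51.5% were in no knockout list, where 14.0% of all regions were in none. The backgrounds and the depths of the lists differ here too, so these shares are not compared either.

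The 1213 prexasertib-only regions called after 6 h of prexasertib in both genotypes were chosen by a peak in the parental 6 h list, which favours a high parental summit, so their values in that list and in the knockout list are set side by side as a description. The median summit height was 8.02 in knockout and 9.18 in parental cells, and the median log2 ratio of knockout over parental was -0.22 (-0.25 to -0.18). Before division by the background the median pileup was 16 in knockout and 14 in parental cells, so the raw pileup was higher, and the height over background lower, in knockout cells. The median fold over the local background was 4.14 in knockout and 4.48 in parental cells, a median log2 ratio of -0.12 (-0.14 to -0.09). Peak width had a median of 335 bp in knockout and 277 bp in parental cells, a log2 ratio of 0.27 (0.23 to 0.31). The 216 regions called in all 5 knockout lists had median folds between 4.33 and 4.73 there and 4.68 in the parental 6 h list.

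Among the 216, the strongest in parental cells lay on chromosome 17 at 30185546 to 30186652. In knockout cells its −log10 q was 24.7 in the DMSO list, 21.6, 21.9 and 25.3 in the 2, 4 and 6 h prexasertib lists, and 8.81 in the camptothecin list. In parental cells it was 23.5 at 4 h and 31.0 at 6 h, with a fold of 9.95 at 6 h. The knockout peaks there were between 661 and 914 bp wide, against 231 bp in the parental 6 h list. A region on chromosome 19 at 7660441 to 7660852 had 17.7 in the knockout DMSO list, 20.4, 14.1 and 17.05 in the knockout 2, 4 and 6 h lists and 8.89 in the knockout camptothecin list. In parental cells it was called at 6 h alone, at 26.2. In both regions the camptothecin list gave the lowest knockout value.

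On chromosome 2 at 242754498 to 242755379 the knockout −log10 q was 6.35 with DMSO, then 5.59, 16.2 and 17.6 in the 2, 4 and 6 h prexasertib lists, and 7.36 in the camptothecin list. The parental values were 6.15, 10.1 and 21.6 at the same times of prexasertib. Here the values were higher at 4 h and 6 h than at 2 h in both genotypes. A region on chromosome 14 at 107119896 to 107120304 had knockout values of 20.3 with DMSO and 14.0, 10.7 and 11.9 at 2, 4 and 6 h, while in parental cells they were 2.15, 4.94 and 21.1 at those times. Its knockout value was thus highest with DMSO, and the parental DMSO list held no peak nearer than 2015 bp. The other region among the first 5, on chromosome 19 at 55963559 to 55964698, had between 8.07 and 11.7 in the knockout lists and 21.4 in parental cells at 6 h.

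The 8 strongest prexasertib-only regions had −log10 q values from 59.8 to 398 and none had a knockout call. Apart from the region on chromosome X, each was called in the 6 h list alone. Their 6 h peaks were between 160 and 183 bp wide, next to the shortest width of that list. No filter for positions prone to artefacts was applied here. Whether these peaks are artefacts of repeats or copy number was not tested, since neither a genome nor reads were used. Of the 20 strongest, 11 had a 6 h peak under 200 bp, against 29.3% of all members, and 12 had no knockout call, against 51.5%. Of the 38 members at a −log10 q of 20 or above, 17 (44.7%) had no knockout call.

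In several of these the background around the peak was high. The local background is solved from the deposited fold and p-value of a summit, and it was at least 5 times the genome-wide background in 113 prexasertib-only regions, 2.62% (2.16% to 3.14%). This was less common than in the regions gained with both drugs, at 5.13% (4.49% to 5.84%), or in those also called with DMSO, at 24.9% (24.2% to 25.6%). Among the 20 strongest, 8 were of this kind. On chromosome 2 the regions at 89872070 to 89872252, 89867370 to 89867529 and 92300807 to 92300974 had pileups of 305, 206 and 211 over local backgrounds of 54.2, 41.7 and 50.4. On chromosome 10 at 42393714 to 42393874 a pileup of 440 stood over a local background of 155, a fold of 2.83. Parental DMSO peaks lay close by, 3026, 445, 2686 and 1989 bp away. The region at the top of the list, on chromosome 1 at 569303 to 569471, had a −log10 q of 398 at a fold of 2.42, its pileup could not be recovered, and a DMSO peak lay 1836 bp away. A high −log10 q there goes with many reads and a modest fold.

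By fold the order differed. Of the 4 regions with the highest fold, those on chromosomes 3, 8 and X are also among the 8 strongest. The one on chromosome 5 and those named after the 4 were picked out after their values were seen. The region on chromosome 3 at 196625617 to 196625777 had a fold of 33.4 and a pileup of 226 over a local background of 5.80, and it was called in no other list. On chromosome 5 at 49501413 to 49501578 the fold was 13.5 at a pileup of 42, also in the 6 h list alone. On chromosome X at 125606350 to 125606644 the fold was 13.0 at 4 h and 12.9 at 6 h, with no call in knockout cells and the nearest parental DMSO peak 1018117 bp away. A region on chromosome 8 followed the chromosome 3 region, at a fold of 20.7, and it too was in the 6 h list alone. The 6 h peaks of these 4 regions were between 161 and 180 bp wide. Whether they are artefacts was not tested here either. Next by fold was another region on chromosome 8, at 144751621 to 144751838. Its fold was 12.9 at 4 h and 11.6 at 6 h in parental cells, with no knockout call. Further down, the region on chromosome 15 at 65341707 to 65342117 had folds in knockout cells of 7.12 with DMSO, 6.11 at 2 h and 6.16 at 4 h, and was not called there at 6 h. In parental cells its fold was 11.2 at 6 h.

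**Figure D4:**
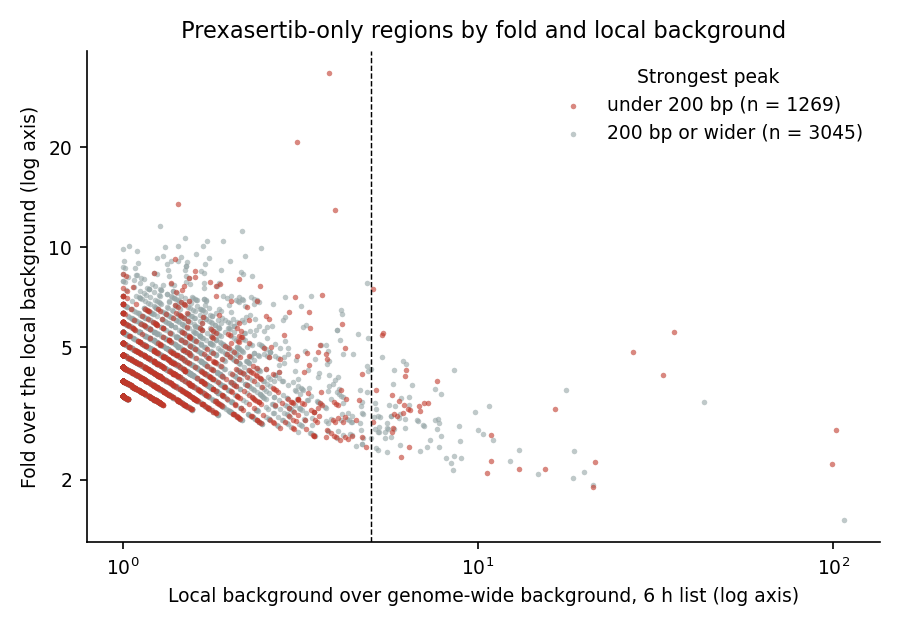
Each point is a prexasertib-only region, with the local background of its strongest 6 h peak over the genome-wide background on the x axis and the fold over the local background on the y axis (both log axes); strongest peaks under 200 bp are red, wider ones grey, and the dashed line marks a ratio of 5. Right of the line lie 113 regions, with a median fold of 2.96, and the point at the top is the chromosome 3 region at 33.4; the region with an unrecovered summit is not drawn.

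The longest 6 h peaks among the members were not the strongest. The longest, 1044 bp on chromosome 7 at 1594991 to 1596086, was called in knockout cells at 2, 4 and 6 h of prexasertib with a −log10 q of 4.99, 3.25 and 5.24, but not with DMSO or camptothecin, and had 3.55 in parental cells at 6 h. Another on chromosome 7, at 142494568 to 142495863, measured 495, 788 and 245 bp at 2, 4 and 6 h in knockout cells. In parental cells it measured 220, 349 and 922 bp at the same times, with −log10 q values of 2.17, 2.41 and 7.59. On chromosome 20 at 62708563 to 62709776 all 5 knockout lists held a peak at 4.81 to 6.47, and the parental 6 h peak was 919 bp wide at 5.84. These 3 regions had knockout calls, as did the other 2 of the 5 longest.

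The prexasertib-only regions were spread over chromosomes 1 to 22 and X. They made up between 16.3% (14.2% to 18.6%) of the 6 h regions on chromosome 6 and 23.8% (20.8% to 27.1%) on chromosome 20, against 18.9% over all. Of the gained regions on each chromosome they were 42.7% (38.5% to 46.9%) on chromosome 17, 43.6% (39.4% to 48.0%) on chromosome 19 and 44.2% (38.2% to 50.4%) on chromosome X. On chromosome 18 they were 57.9% (49.2% to 66.1%), on chromosome 13 56.6% (48.9% to 64.0%) and on chromosome 9 56.3% (51.0% to 61.5%). The interval of chromosome 17 did not overlap that of chromosome 9, nor those of several others, such as chromosomes 1 (49.8% to 56.4%) and 2 (50.1% to 58.1%). No allowance was made for the number of chromosome pairs. The share without a knockout call lay between 45.0% on chromosome 14 and 59.2% on chromosome 4, with intervals that overlapped.

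A parental DMSO peak lay within 1000 bp of 76 prexasertib-only regions (1.76%, 1.39% to 2.20%). This held for 1.77% (1.39% to 2.21%) of the regions gained with both drugs and 2.22% (1.71% to 2.83%) of the camptothecin-only regions. All 3 sets bar overlap with a DMSO peak, which lowers these shares by construction. Whether they differ from those of randomly placed regions was not tested. With a reciprocal overlap of 50% as the condition for a shared site, the share near a DMSO peak was 15.3%, and 4.09% when the parental lists alone were merged. The median distance to the nearest DMSO peak was 35664.5 bp (33733 to 37525) for the prexasertib-only regions, 41040 bp (37712 to 43946) for the camptothecin-only regions and 28138 bp (26903 to 29266) for those gained with both. Members themselves were 277378 bp apart in the median, and 199 of 4291 neighbouring pairs (4.64%) lay within 10000 bp.

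They were a larger part of the gained regions where open chromatin was sparse. For each region the number of regions called in all 10 lists, 11603 in the genome, was counted in the 1-Mb window around it. Where there were none, 237 of 329 gained regions were prexasertib-only, 72.0% (66.9% to 76.8%), and where there were 21 or more, 135 of 355, 38.0% (33.0% to 43.3%). In the classes between, with 1 to 2, 3 to 5, 6 to 10 and 11 to 20 such regions, the shares were 57.2%, 52.6%, 48.8% and 45.1%, and the intervals of some neighbouring classes overlapped. The camptothecin-only regions lay in windows of like density, with a median of 5 such regions against 6 for the prexasertib-only regions, and 4.92% (4.16% to 5.78%) of them against 5.49% (4.83% to 6.22%) had none. In the windows with none, 171 of the 237 (72.2%, 66.0% to 77.8%) had no knockout call, against 48.2% to 56.2% in the other classes and 14.0% of all regions. Members there were also weaker, with a median −log10 q of 2.99, against 4.69 in the densest windows, and the part of strength in these shares was not tested.

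**Figure D5:**
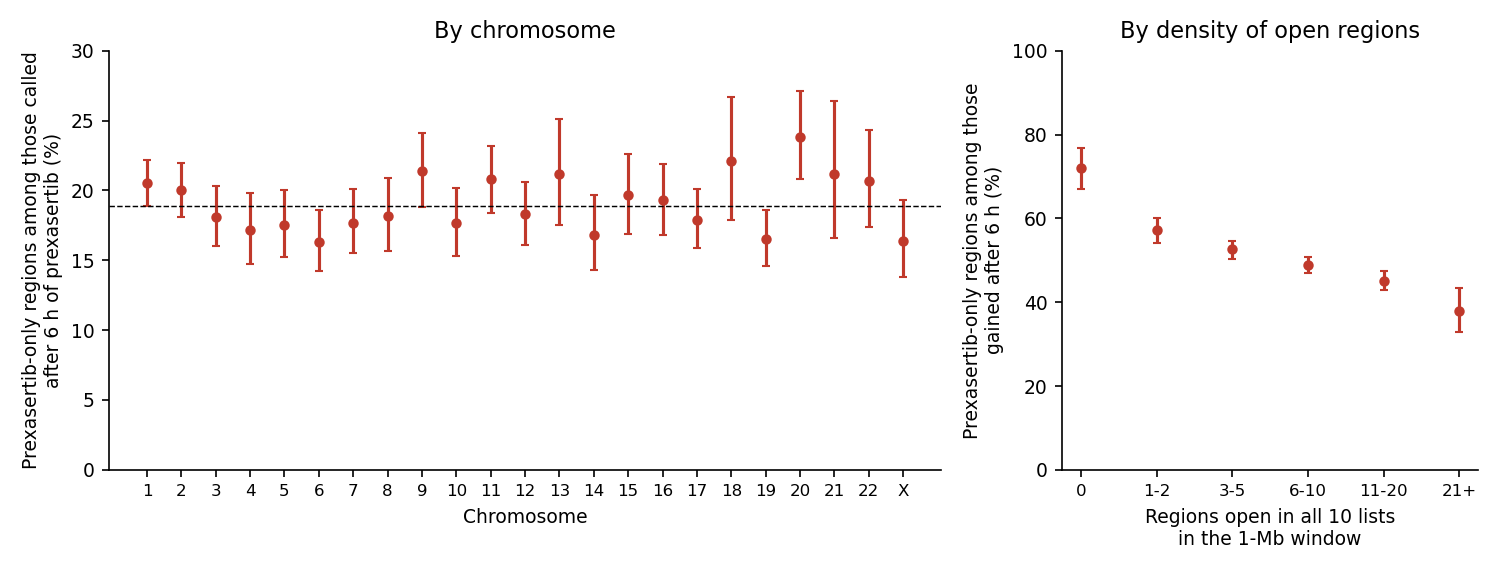
Left, the percent of the regions called after 6 h of prexasertib that are prexasertib-only (y axis) on each chromosome (x axis), with the overall 18.9% as a dashed line; right, their percent of the regions gained at 6 h (y axis) by the number of regions open in all 10 lists in the surrounding 1-Mb window (x axis), both with 95% exact binomial intervals. The left values lie between 16.3% and 23.8%, and the right values fall stepwise to 38.0% from 72.0%.

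The fixed 1-Mb windows with most members were on chromosome 11 from 64000001 to 65000000 and on chromosome X from 153000001 to 154000000, with 12 each, and on chromosome 1 from 167000001 to 168000000, with 11. The chromosome 11 window was rich in peaks, with 48 regions called at 6 h of prexasertib and 29 with DMSO in parental cells. In the chromosome 1 window 11 of its 12 gained regions were prexasertib-only, and 5 of the 11 had no knockout call. In total 1782 windows held a member, and 743 of them held a single one.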

How the data were processed

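ATAC-seq peak lists of 10 libraries were used, 1 per genotype and treatment. Per the submitters' processing notes the build was hg19, MACS2 2.1.2 is the peak caller listed, BWA 0.7.17 the aligner, and Picard 2.9.2, SAMtools 1.8, Trimmomatic 0.39 and Trim Galore 0.6.2 are listed as well; the sources used here give no parameters, transposase shift or duplicate handling. The deposited lists hold positions, a score (10 times −log10 q, rounded down; not used further), the fold at each summit over the local background, the −log10 p-value and the −log10 q-value, as the peak caller wrote them.

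Lines with the same start and end were summits of 1 peak. Peaks on other sequences, 1.75% to 2.64% of each list, were left out. A whole pileup and local background were solved from fold and p for each summit, within 0.001 of the deposited −log10 p for at least 99.8% of summits of each list; the smallest background of a list is its background pileup, and height is pileup over it. The steps were tested on simulated data. Positions are 1-based. No genome or annotation of hg19 was used here, so regions carry no gene names, start-site distances, motifs or sequences. Regions were named by −log10 q, width and calls: the 8 strongest, the 5 longest, the 5 strongest in no other list, the 5 strongest in all 5 knockout lists, and those at all 3 times with no knockout call. Those by fold were added after seeing the data. Members and lists were chosen with earlier results of these data known. Python 3.11.15, pandas 2.3.3 and SciPy 1.17.1 were used.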

Additional observations from a re-analysis of the deposited data

How the results depend on the processing

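No paired analysis was possible because the labels give no replicate numbers and no result comes from a test; parental and knockout libraries share treatments, which are the groups themselves. The alternatives changed 1 choice each. Counting a peak as the same site only at a reciprocal overlap of 50% gave 6280 sites, of which 651 overlap a DMSO peak; 16.6% of them were called in the knockout DMSO list and 56.5% in no knockout list, their median −log10 q was 4.26 and their median width 250 bp, and 15.3% had a DMSO peak within 1000 bp. Keeping peaks with a −log10 q of at least 10 in every list gave 1863 regions, since weak DMSO and camptothecin peaks no longer exclude a region; 15% were called early, 21.6% in the knockout DMSO list and 41.9% in no knockout list, at a median −log10 q of 13.2 and a width of 408 bp, and 0.859% had a DMSO peak within 1000 bp. Scaling all pileups to the shallowest library gave 3801 regions, 19.5% called early and 54.6% with no knockout call, at 4.54 and 253 bp. Merging the parental lists alone gave 4544 regions, 20.8% in the knockout DMSO list, 48.9% in no knockout list and 4.09% near a DMSO peak. Leaving out regions with a DMSO or camptothecin peak within 500 bp gave 0.711% near a DMSO peak. Without the 4 h list the early share, then from 2 h alone, was 6.85%. Keeping members with a local background under 5 times the genome-wide one, an alternative added after seeing the data, gave 1.26% near a DMSO peak. The cause of the other shifts was not tested. Start-site distance was not run. At a median summit pileup of 12, few reads separate a call from no call.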

Other observations

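Of the 9263 regions called in a single list, the parental 6 h prexasertib list held 2099, the most of the 10 lists. All of them are prexasertib-only regions by definition of the rule. The knockout 2 h and 6 h prexasertib lists held 1562 and 1488, the parental camptothecin list 1219, and the parental DMSO list 239. Of the 2843 camptothecin-only regions, 42.9% were in no other list, against 48.7% of the prexasertib-only regions and 26.1% of all regions. Both rules bar calls in other lists, which raises both shares against all regions.

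Members with a local background of at least 5 times the genome-wide one had a median width of 235 bp. Of these 113, 49 had no knockout call, where 14.0% of all regions had none. Among the camptothecin-only regions 2.29% (1.77% to 2.9%) were of this kind, but the highest −log10 q there was 18.5, whereas it was 118 among the 113.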
